A study of Drosophila melanogaster with 6 samples.

Results

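Cytosolic ribosomal protein genes and their paralogs were followed in S2 cells, an embryo-derived line of Drosophila melanogaster that resembles hemocytes, the blood cells of the fly. The genes were chosen by symbol: RpL, RpS or RpLP followed by a number and any letter suffix, together with sta, the fly gene for the small-subunit protein SA, and sop, which the annotation used here lists as RpS2. This rule took 86 of the 16451 genes in the files, of which 45 encode large-subunit proteins, 38 small-subunit proteins and 3 proteins of the P stalk. Both groups were wild type by their labels. The 3 control libraries came from cells that received medium alone, and the 3 H2O2 libraries from cells given 10 mM hydrogen peroxide for 30 min, both at 25 °C in medium with 10% serum. Poly(A) RNA was sequenced with a stranded kit. By its title the series asks what nuclear p38, a kinase that responds to stress, does when oxidative stress changes transcription.

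The cytosolic ribosome translates messenger RNA in the cytoplasm, and each ribosome carries 1 copy of most of its proteins, the P stalk proteins P1 and P2 being the known exception. Many fly ribosomal protein genes are known as Minute genes, since losing 1 copy slows development and shortens bristles. Some have a duplicate, and several of those duplicates are known for use in the germ line. Many ribosomal protein genes also carry small nucleolar RNAs (snoRNAs), guides of ribosomal RNA modification, inside their introns.

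Library totals ran from 35404927 to 42043808 expected counts. The S2 label was checked against 14 hemocyte markers, of which 14 were at 1 TPM (a length-corrected share of all transcripts) or more in every library, with a summed level of 5268 to 7707 TPM. Of 7 germ-line and ovary markers 4 reached 1 TPM in each library, of 8 testis markers 1, of 5 neuron markers 2 and of 5 muscle markers 0 or 1. The libraries numbered 1 stood apart from those numbered 2 and 3 in both groups, so values are given library by library, and the count of calls, the median fold change and the TPM share also without both of them. The labels do not say if the replicates were separate cultures, so the tests measure the spread between libraries, which may be technical. These are bulk samples, in which fewer cells of a type and less RNA per cell cannot be told apart.

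Ribosomal protein genes were the most abundant class of message in these cells. The 86 genes chosen held 77 of the 100 genes and 18 of the 20 genes with the highest mean TPM. These counts, and the shares below, leave out RpL37-1, whose hyphenated symbol lies outside the rule and which had 12738 to 16169 TPM. Of the 86 genes, 78 were above 1000 TPM in every library, and 4 were under 5 TPM in every library. Those 4 were the duplicates RpL10Aa, RpS28a, RpS10a and RpS5b. The 66 genes outside the paralog families had a median of 5088 TPM with quartiles of 3821 and 6910 TPM, and the highest was 17.8 times the lowest. Transcript levels were thus unequal between genes whose proteins the ribosome carries, for the most part, in equal number.

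The 2 highest genes encode the smallest proteins of the large subunit. RpL39 (FBgn0023170, chromosome 2R, 24061853 to 24062431 in dm6) had 29583, 31086 and 31141 TPM in controls and 28460, 34848 and 33191 TPM after H2O2, always given here by replicate number from 1 to 3. RpL41 (FBgn0066084, chromosome 2R, 24903416 to 24903935) had 31684, 30046 and 27754 TPM in controls and 29212, 33128 and 30490 TPM after H2O2. The groups overlapped for both. These transcripts are short (288 and 320 nt), and the effective length by which the authors' RSEM run divided the counts of RpL39 was 87.46 to 96.90 nt, so its TPM depends strongly on that correction. RpL35, a large-subunit protein at the exit of the peptide tunnel, came next among the 86 genes with 11178, 13097 and 14038 TPM in controls and 11921, 13938 and 14334 TPM after H2O2.

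The lowest levels outside the paralog families were those of the large-subunit genes RpL17, RpL4 and RpL18. RpL17 (FBgn0029897, chromosome X, 6741537 to 6744238) had 1273, 1669 and 2038 TPM in controls and 1646, 1983 and 1941 TPM after H2O2. RpL4 had 1757 to 2015 TPM in controls and 1893 to 2195 TPM after H2O2, and RpL18 had 1970 to 2139 and 2004 to 2439 TPM. The groups overlapped for each of the 3 genes. Over the 66 genes outside the families, log2 TPM fell with log2 transcript length (Pearson's r = −0.56 across genes that share the same libraries and the same length correction).

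**Figure D1:**
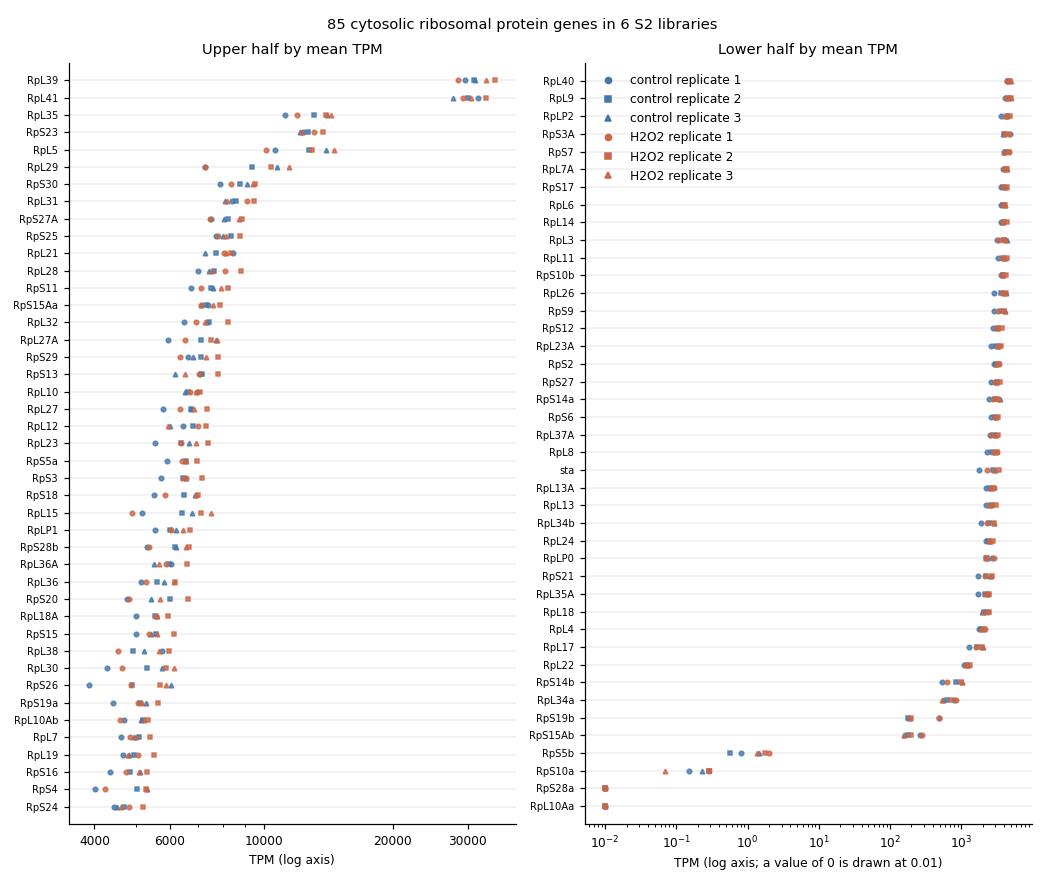
Level of 85 of the 86 genes in the 6 libraries in TPM on a log axis, ordered by mean, with the higher genes on the left and the lower genes on the right; blue marks are controls, red marks are H2O2, and the shape gives the replicate number. RpL39 and RpL41 stand apart at the top, most genes lie above 1000 TPM in every library, and 4 duplicates lie under 5 TPM.

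Outside the paralog families, the large and small subunits stood at like levels per gene. There the median gene of the large subunit had 5113 ± 264 TPM in controls and 5441 ± 600 TPM after H2O2 (SD, n = 3 per group). That of the small subunit had 4828 ± 406 and 5083 ± 268 TPM. RpLP0, the stalk base, had 2728, 2254 and 2319 TPM in controls and 2933, 2322 and 2205 TPM after H2O2. RpLP1 had 5543 to 6209 TPM in controls and 6049 to 6707 TPM after H2O2, and RpLP2 had 3695 to 4421 and 4131 to 4826 TPM. The stalk dimer partners were thus above their anchor RpLP0 in every library. The summed TPM of large-subunit genes was 1.54 to 1.59 times that of small-subunit genes in the 6 libraries, and the groups overlapped in this ratio.

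The genes were spread over the genome, with 22 on chromosome arm 3R, 18 on 2R, 17 on 2L, 14 on 3L, 14 on X and 1, RpS3A, on chromosome 4. Introns of 28 of them held 69 of the 269 snoRNA genes in the annotation, and RpS5a alone held 14. The tested host genes had a median of 4445 TPM and the tested genes without a snoRNA 4983 TPM. Transcript lengths ran from 288 to 1403 nt with a median of 643 nt, below the median of 1873 nt over all genes tested. Of the 86 genes, 20 overlap a protein-coding gene on the opposite strand, such as RpL12 and RpL39, whose ends share 8 bp. The kit keeps strand, but no source used here gives the strand setting of the counting, so the counts of overlapping genes are less certain.

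The 86 genes made up a large share of transcripts in both groups. Their summed TPM was 42.0%, 45.9% and 46.5% of all transcripts in controls and 44.1%, 50.5% and 47.8% after H2O2. The share was higher after H2O2 at each of the 3 replicate numbers, while the groups overlapped, at 44.8 ± 2.42% and 47.4 ± 3.21% (SD, n = 3 per group). The difference of 2.64 points fell to 1.12 points without H2O2 replicate 2 and to 1.25 points without control replicate 1, and it was 4.32 points without H2O2 replicate 1 and 2.93 points without both libraries numbered 1. Not corrected for length, the genes held 15.7%, 17.2% and 17.6% of expected counts in controls and 18.2%, 21.8% and 19.6% after H2O2. On that scale the groups, at 16.9 ± 0.980% and 19.9 ± 1.82%, did not overlap.

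**Figure D2:**
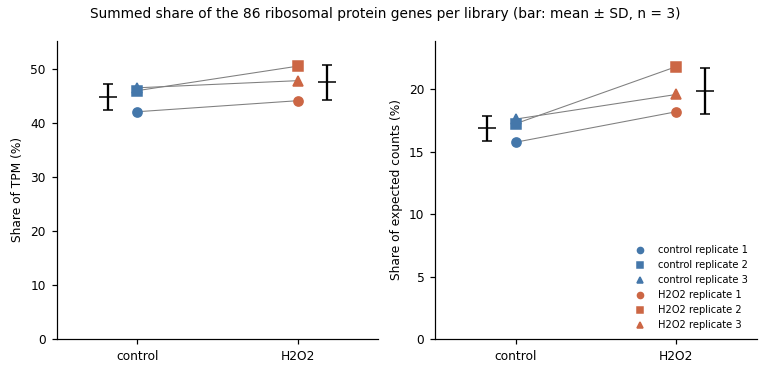
Share of all TPM (left, percent) and of all expected counts (right, percent) held by the 86 genes in each library; lines join libraries with the same replicate number, and bars give the mean ± SD of 3 libraries per group. The TPM shares overlap between groups (42.0 to 46.5% and 44.1 to 50.5%), whereas the count shares do not (15.7 to 17.6% and 18.2 to 21.8%).

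The question of the series, what 30 min of H2O2 changes in the messages, was asked of each gene in a fit across all 8955 genes that passed the filter on low counts. Of the 86 genes, 83 passed that filter, and RpL10Aa, RpS28a and RpS10a did not. No ribosomal protein gene was called: by edgeR's quasi-likelihood test 0 of 83 had a Benjamini-Hochberg adjusted p under 0.05, against 3.14% of all genes tested. Only 1 of the 83 had an unadjusted p under 0.05. DESeq2 called 0 of 83 as well, against 7.88% of all genes, with 2 at an unadjusted p under 0.05. Without both libraries numbered 1, edgeR called 0 of 83, against 0.0% of all genes, with 5 at an unadjusted p under 0.05. The fitted log2 fold changes were small and of 1 sign: 83 of 83 were positive with a median of 0.20, where 54.8% of all genes tested were positive with a median of 0.02. The median SE of a single gene was 0.13.

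By role the fold changes were alike. The 44 tested large-subunit genes had a median log2 fold change of 0.20, the 36 small-subunit genes 0.20 and the 3 stalk genes 0.22. Among large-subunit genes the highest values were in RpL8, RpL13A and RpL23A, and the lowest in RpL3, RpL5 and RpL10Ab. RpL8 (FBgn0261602, chromosome 3L, 2587456 to 2588883), a protein near the peptidyl transferase centre, had 1632, 1973 and 2156 CPM (library-scaled read counts) in controls and 2428, 2588 and 2097 CPM after H2O2. H2O2 replicate 3 lay below the highest control, and the fitted log2 difference was 0.30 (SE 0.14, adjusted p = 0.425 by edgeR). RpL13A had 1034, 1216 and 1220 CPM in controls and 1428, 1566 and 1247 CPM after H2O2. Its groups did not overlap, by a narrow gap, and the log2 difference was 0.29, with an SE of 0.13 and an adjusted p of 0.399 by edgeR.

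RpL3, another protein near that centre, had the lowest log2 fold change at 0.09 (SE 0.16), with 3452, 4494 and 4821 CPM in controls and 3943, 4919 and 4736 CPM after H2O2. RpL5 and RpL11 bind 5S ribosomal RNA together before it joins the large subunit. RpL5 had 7854, 9784 and 10595 CPM in controls and 8032, 11078 and 11366 CPM after H2O2, a log2 fold change of 0.11. RpL11 had 1475, 1827 and 1836 CPM in controls and 1812, 2300 and 1950 CPM after H2O2, a log2 fold change of 0.24. The groups overlapped for all 3 genes, and the libraries numbered 1 were the lowest of their group for each.

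RpL40 and RpS27A are made as fusions with ubiquitin, a protein used to tag others for degradation. RpL40 had 1488, 1617 and 1632 CPM in controls and 1624, 1941 and 1787 CPM after H2O2 (log2 fold change 0.18), and RpS27A had 2598, 2929 and 2818 CPM in controls and 2777, 3560 and 3178 CPM after H2O2 (0.19). The groups overlapped for both. Their fold changes lay near the median of the 83 genes.

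Among small-subunit genes, RpS6 encodes the known target of S6 kinase and RpS3 a protein of the messenger RNA entry channel. RpS6 had 1776, 2111 and 2161 CPM in controls and 2166, 2575 and 2201 CPM after H2O2, and RpS3 had 3481, 4037 and 3994 CPM in controls and 4250, 4969 and 4078 CPM after H2O2. In both genes the lowest H2O2 library lay just above the highest control, with log2 fold changes of 0.20 and 0.21 and adjusted p of 0.622 and 0.564 by edgeR. RpS2, the gene known as sop, had a log2 fold change of 0.23 and sta 0.27, with overlapping groups in both. RpS3A and RpL7A were among the 5 lowest, at 0.12 and 0.13. RpS21 (FBgn0015521, chromosome 2L, 2856070 to 2857029), a small-subunit protein known from flies to interact with sta, had 349, 458 and 504 CPM in controls and 469, 613 and 534 CPM after H2O2. Its groups overlapped, and the log2 difference was 0.30, with an SE of 0.17 and an adjusted p of 0.550 by edgeR.

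Libraries with the same replicate number deviated together, and edgeR with that number added as a block called 8 of the 83 genes higher and 0 lower, or 9.64%, against 8.99% of all genes tested called higher and 21.7% called in either direction. With no pair left out, the share is thus near that of all genes. The 4 with the smallest adjusted p in this edgeR fit were RpS21 (log2 fold change 0.31, adjusted p = 0.0225), RpL23 (0.27, 0.0285), RpS14b (0.28, 0.0298) and RpL30 (0.24, 0.0383), and the others included RpL28, RpL13A and RpL11. RpL23, RpL30 and RpL28 overlap a gene on the opposite strand. The count depended on single pairs of libraries: it was 1 without the pair numbered 1, 0 without that numbered 2, and 31 without that numbered 3. Over all genes, 642 of 9098, 361 of 8989 and 732 of 8990 were called higher in these fits. At an unadjusted p under 0.05 there were 69 of the 83 genes with the block, beside 3251 of the 8955 over all genes. Without the pair numbered 1, 2 or 3 there were 16, 1 and 63 of the 83. Over all genes these were 2747 of 9098, 2157 of 8989 and 2952 of 8990. By CPM, 70 of the 83 were higher after H2O2 at each of the 3 replicate numbers.

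The log2 fold change between groups varied with transcript length over the whole transcriptome. Among other transcripts of at most 1000 nt and at least 5 CPM, 1056 genes outside the cytosolic ribosomal set, 91.9% had positive log2 fold changes with a median of 0.15, and 10.1% were called higher with the block. Transcripts over 8000 nt had a median of −0.57. With the length trend of each library removed, the ribosomal protein genes had a median log2 fold change of 0.04, with 76 positive and 7 negative values, and 0 of 83 were called, against 2.4% of all genes (0 of the 83 had an unadjusted p under 0.05). With the length trend removed and the block together, the median was 0.03 and 0 of 83 were called, against 7.47% of all genes, with 1 at an unadjusted p under 0.05. RpL8 kept 0.17 of its 0.30 and RpL23A 0.15 of its 0.28, whereas RpL5 came to −0.00079 and RpL10Ab to −0.03. What part length has in the small positive values of single genes was not tested beyond these fits.

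**Figure D3:**
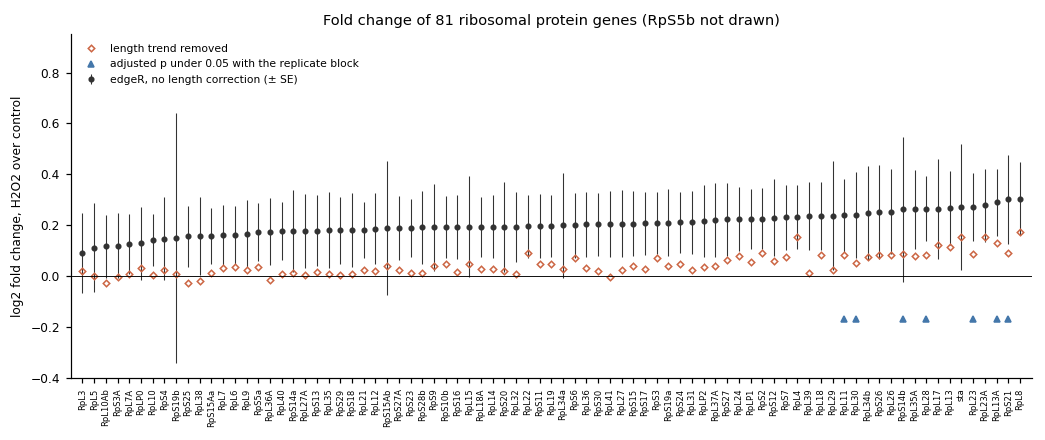
Log2 fold change of H2O2 over control for 81 of the 83 tested genes, with RpS5b, at 0.97, among those not drawn; black points with bars are edgeR's values ± SE without length correction, open red diamonds are the values after removal of each library's length trend, and blue triangles mark 7 of the 8 genes called with the replicate block. Black points run from 0.09 to 0.30, and most red diamonds lie close to 0.

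The groups overlapped more in TPM than in CPM. By CPM, 16 of the 83 genes (19.3%) had every H2O2 library above every control, against 9.98% of all genes tested and 8.52% of the short transcripts above. The reverse held for 0 of the 83, against 10.4% of all genes tested and 7 of those 1056 short transcripts. By TPM, 0 of the 83 had groups that did not overlap, against 6.81% of all genes higher and 15.4% lower. In limma on log2(TPM + 1), 0 of 83 were called, against 2.52% of all genes, with 1 at an unadjusted p under 0.05. On that scale 82 of the 83 values were positive with a median of 0.09, where 36.5% of all genes were positive with a median of −0.06.

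Between libraries of the same number the size of the difference varied. Over the 82 genes other than RpS5b, the median difference in log2 TPM of H2O2 minus control was 0.11 for the pair numbered 1, 0.14 for that numbered 2 and 0.02 for that numbered 3. Over all genes tested these medians were −0.07, −0.11 and −0.03. By TPM, 68, 81 and 50 of the 82 were higher after H2O2 in the pairs numbered 1, 2 and 3, where 37.7%, 33.3% and 43.6% of all genes were. By CPM, which is not corrected for length, 80, 82 and 72 of the 82 were higher, where 54.2%, 52.6% and 51.8% of all genes were. In log2 TPM the pair numbered 1 was the most spread, with an SD over genes of 0.14 against 0.05 and 0.06, and a range from −0.34 for RpL38 to 0.47 for RpL8. Without H2O2 replicate 2 the median log2 fold change of the 83 genes by edgeR was 0.11, without H2O2 replicate 1 it was 0.26, and without both libraries numbered 1 it was 0.20.

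Most of these genes were low in the libraries numbered 1, in controls and after H2O2 alike. By TPM, the library numbered 1 was the lowest of its group in both groups for 52 of the 83 genes, or 62.7%, where 24.7% of all genes tested had this pattern. It was the highest in both for 5 of the 83, where 2976 of the 8955 genes tested had that pattern. The median deviation in log2 TPM from the mean of replicates 2 and 3 was −0.16 in controls and −0.13 in H2O2, and the deviations of the 83 genes in the 2 groups had a Pearson's r of 0.825, a description across genes of the same 6 libraries. The gene sta had 1790, 2836 and 3024 TPM in controls and 2310, 3371 and 2921 TPM after H2O2. RpL29 had 7264, 9345 and 10696 TPM in controls and 7281, 10383 and 11432 TPM after H2O2. In both genes the library numbered 1 was the lowest of each group, and the groups overlapped.

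Genes for the mitochondrial ribosome, a separate machine that translates the messages of the mitochondrial genome, deviated the other way. Of 73 such genes, 71 were highest in the library numbered 1 in both groups, where 2976 of all 8955 genes tested were. The median deviations of the 73 were 0.63 in controls and 0.68 in H2O2. Their summed share of TPM was 0.627%, 0.391% and 0.417% in controls and 0.633%, 0.399% and 0.415% after H2O2. Some cytosolic genes were high in the libraries numbered 1 like the mitochondrial set. These were the duplicates RpS19b, RpS15Ab and RpL34a, and also RpLP0 and RpS3A. The duplicate RpS14b was low there, with deviations of −0.79 in controls and −0.67 in H2O2. The hemocyte markers summed to 5399 and 5268 TPM in the libraries numbered 1 and to 6259 to 7707 TPM in the other 4. A large part of each sum was Nplp2, with 2630, 4096 and 3110 TPM in controls and 2781, 4920 and 3643 TPM after H2O2. Hml, NimC1, crq, eater, He and Fer1HCH were, like Nplp2, lowest in the library numbered 1 of both groups. Pxn and Sr-CI were highest there, and the remaining markers had neither pattern. The part of such differences in the ribosomal protein values was not tested.

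**Figure D4:**
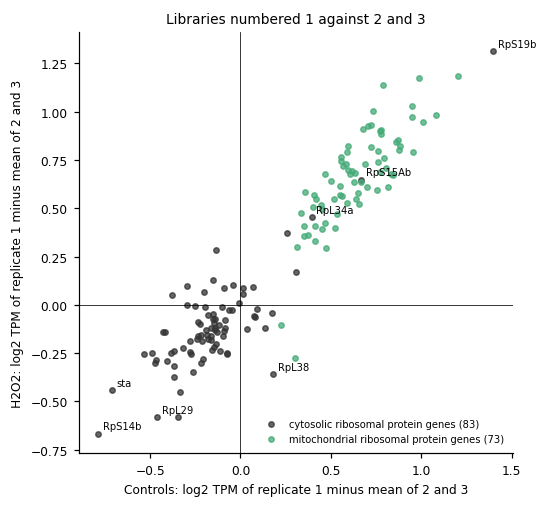
Deviation in log2 TPM of the library numbered 1 from the mean of replicates 2 and 3, in controls (horizontal axis) and in H2O2 (vertical axis), for 83 cytosolic (black) and 73 mitochondrial (green) ribosomal protein genes. Cytosolic genes centre on −0.16 and −0.13, mitochondrial genes on 0.63 and 0.68, and RpS19b, RpS15Ab and RpL34a lie with the mitochondrial genes.

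The paralog families were unequal, with 1 copy dominant in each. Within the rule 8 families had both copies, and 7 further copies with hyphenated symbols lay outside the rule (RpL7-like, RpL22-like, RpL24-like, RpLP0-like, RpS28-like, RpL37-1 and RpL37-2) and served as comparators. In 6 of the 14 pairs the second copy was under 1 TPM in every library. RpL10Aa (FBgn0038281, chromosome 3R) and RpS28a (FBgn0039739, chromosome 3R) had 0 counts in all 6 libraries, which allows up to 0.0714 to 0.0847 CPM per library by counting error alone, beside RpL10Ab at 4582 to 5341 TPM and RpS28b at 5314 to 6681 TPM. RpS10a had 19 counts over the 6 libraries and at most 0.29 TPM, beside RpS10b at 3602 to 4308 TPM. RpL22-like, known for the testis, was at most 0.11 TPM beside RpL22 at 1116 to 1350 TPM. RpL37-2 was at most 0.13 TPM beside RpL37-1 at 12738 to 16169 TPM, and RpS28-like at most 0.33 TPM.

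The other 8 pairs were compared between groups by the log2 ratio of the copies' TPM within each library, which does not depend on library scaling. In none of the 8 did the groups fail to overlap. The exact two-sided permutation test gave p from 0.2 to 1.0, where 0.1 is the smallest that 3 against 3 libraries allow, and every p adjusted over the 8 pairs by Benjamini-Hochberg was 1.0. A design of this size cannot reach 0.05, so these values do not show that the ratios are equal.

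RpS14a and RpS14b lie in tandem on chromosome X (7933742 to 7934677 and 7934898 to 7935792), with 220 bp between them, and encode the small-subunit protein uS11 of the platform. RpS14b was 17.6%, 22.1% and 22.4% of the pair's TPM in controls and 18.5%, 23.4% and 23.3% after H2O2. Its share was higher after H2O2 at each of the 3 replicate numbers, and the groups overlapped, with both libraries numbered 1 low. The log2 ratio of RpS14a to RpS14b differed by −0.09 between groups (exact permutation p = 0.5), with an SD of 0.02 over the 3 same-numbered differences. Without H2O2 replicate 1, alone or together with control replicate 1, the groups did not overlap for this pair. RSEM's posterior SD of the count, its own measure of doubt in dividing shared reads, was at most 0.511% of the RpS14b count.

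RpL34a (chromosome 3R, 26058420 to 26059267) had the widest spread of shares, in points, of the 8 second copies. It made up 29.0%, 20.4% and 16.2% of the RpL34 pair's TPM in controls and 26.8%, 19.9% and 15.9% after H2O2. The order of the libraries was the same in both groups, and the log2 ratio of RpL34b to RpL34a differed by 0.08 between group means, within SDs of 0.54 and 0.48 (n = 3; exact permutation p = 0.7). RpL34a had 789, 641 and 562 TPM in controls and 853, 715 and 542 TPM after H2O2, whereas RpL34b had 1935, 2493 and 2902 TPM and 2330, 2875 and 2860 TPM. In each group the library numbered 1 was the highest for RpL34a and the lowest for RpL34b.

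RpS19b, a copy known for the germ line in flies, had 486, 182 and 186 TPM in controls and 487, 200 and 193 TPM after H2O2. Both libraries numbered 1 were far above the other 4, and values at the same number were close. The dominant RpS19a went the other way, with 4413, 5121 and 5272 TPM in controls and 5065, 5640 and 5163 TPM after H2O2. The share of RpS19b was 9.93%, 3.43% and 3.41% in controls and 8.78%, 3.42% and 3.60% after H2O2. The log2 fold change of RpS19b by edgeR was 0.15 (SE 0.49), and it was −0.41 without H2O2 replicate 1.

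RpS15Ab had 266, 179 and 157 TPM in controls and 278, 199 and 158 TPM after H2O2, 2.68 ± 0.704% and 2.76 ± 0.904% of its pair with RpS15Aa (SD, n = 3). RpS15Aa itself was among the steadiest genes, at 7109 to 7389 TPM in controls and 7092 to 7890 TPM after H2O2. RpS5b, another copy known for the germ line, had 0.81, 0.56 and 1.45 TPM in controls and 2, 1.75 and 1.37 TPM after H2O2, beside RpS5a at 5931 to 6962 TPM. This was the largest fitted change of the 83 genes, from 0.571 ± 0.281 to 1.12 ± 0.226 CPM (SD, n = 3), or 0.97 on the log2 scale, with an SE of 0.39 and an adjusted p of 0.325 by edgeR. It rested on 194 counts over 6 libraries, and the groups overlapped.

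Of germ-line and ovary markers, bam had 94.7 to 132 TPM, aub 49.9 to 56.7 TPM and piwi 16.7 to 22.3 TPM over the 6 libraries, whereas vas was at most 0.40 TPM and tj at most 0.25 TPM. The summed level of the 7 genes was 178 to 201 TPM in controls and 174 to 202 TPM after H2O2, and their part in the levels of RpS19b and RpS5b was not tested.

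RpL7-like, RpL24-like and RpLP0-like, the hyphenated copies well above 0 other than RpL37-1, encode proteins whose yeast counterparts act in assembly of the large subunit, and not in the finished ribosome. RpL7-like made up 9.94 ± 0.469% of its pair with RpL7 in controls and 9.84 ± 0.869% after H2O2. RpL24-like made up 17.1 ± 1.12% and 17.2 ± 1.59% of its pair with RpL24. RpLP0-like made up 10.4 ± 1.34% and 9.68 ± 1.58% of its pair with RpLP0 (SD, n = 3 per group for all 3 pairs). The groups overlapped in all 3. RpLP0-like had a log2 fold change of 0.0056 by edgeR.

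**Figure D5:**
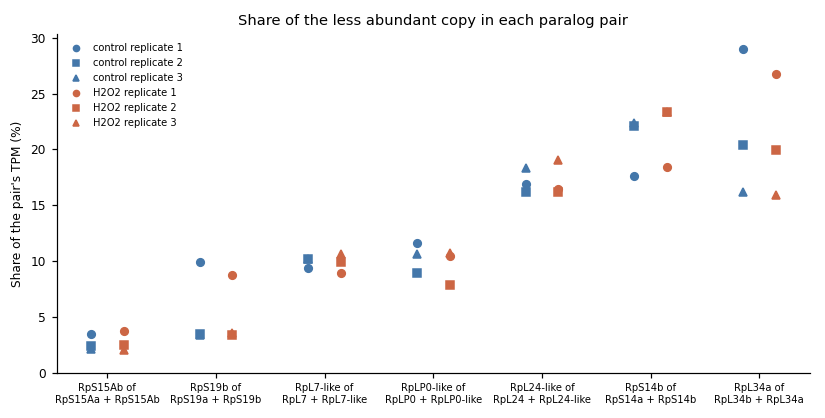
Share of the less abundant copy in the summed TPM of its pair (percent) for 7 of the 8 compared pairs, with RpS5b, at most 0.031% of its pair, not drawn; blue marks are controls, red marks are H2O2, and the shape gives the replicate number. The groups overlap in each pair, and the libraries numbered 1 stand apart for RpS14b, RpL34a, RpS15Ab and RpS19b.

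The deposited files also give a gene length per library, weighted by the authors' RSEM run over a gene's transcripts. It varied between libraries for 68 of the 86 genes, by under 5% in every case. In 5 of these genes the groups did not overlap, each shorter after H2O2, against 8.2% longer and 9.62% shorter among 5000 genes whose length varied. For 4 of the 5 (RpS14a, RpL11, RpL13A and RpL38) the difference was under 1 nt. The exception was RpL9, a large-subunit gene singled out here after its values were seen.

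RpL9 (FBgn0015756, chromosome 2L, 11002758 to 11004189 in dm6) had lengths of 790, 799 and 798 nt in controls and 771, 773 and 770 nt after H2O2. Every H2O2 library was below every control. The mean fell by 24.4 nt, a change of −3.06%, and 6.14% of the 5000 genes differed by at least 2% with no overlap. The annotation lists 3 transcripts of 761, 798 and 807 nt. All 3 carry the same coding sequence of 570 nt and differ in untranslated sequence. Among these 3, a mean under 798 nt needs reads given to the 761-nt transcript. Its first exon begins at 11004189 on the minus strand, upstream of the others at 11004153, so its start does not make it shorter. The 798-nt transcript has 3 exons, as it keeps an intron that the others, with 4 exons each, remove. The 807-nt transcript runs on to 11002758 at its far end, where the others stop at 11002840. The parts of start, splicing and end in the length change were not tested. The level of RpL9 was 4110, 4551 and 4613 TPM in controls and 4316, 5107 and 5028 TPM after H2O2, with overlapping groups.

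Genes that work with these proteins were read from the same edgeR fit. Of 7 tested elongation factor genes 0 were called, with a median log2 fold change of 0.11. The most abundant, eEF1alpha1, which brings aminoacyl-tRNA to the ribosome, went from 20372 ± 1482 to 20719 ± 1366 CPM (SD, n = 3; log2 fold change 0.02), and the translocase gene eEF2 from 12334 ± 550 to 11604 ± 726 CPM (−0.09). Of 37 initiation factor genes 0 were called (median 0.06), of 73 mitochondrial ribosomal protein genes 0 (median 0.12), and of 6 ribosome-associated or Minute-response genes 0, with Rack1, a protein on the small subunit, at 0.18 and Xrp1, a transcription factor of the Minute response, at −0.04. At an unadjusted p under 0.05 there were 0, 2, 0 and 0 genes in these lists. With the replicate block 3 of the 37 initiation factor genes were called lower, where 12.8% of all genes were, and 2 of the 73 mitochondrial ribosomal protein genes higher, where 8.99% of all genes were. With the length trend removed beside the block, 0 of either list were called.

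Ribosome biogenesis genes were on the other side of 0. Of 26 tested genes 17 were negative, the median log2 fold change was −0.06 and 0 were called by edgeR, with 1 at an unadjusted p under 0.05. With the replicate block 6 of the 26 fell and 0 rose, where 12.8% of all genes fell. The gene for the growth regulator Myc went from 415 ± 29.0 to 300 ± 31.1 CPM (SD, n = 3; log2 fold change −0.47, adjusted p = 0.00146 with the block by edgeR). Polr1A and Polr1B, subunits of the RNA polymerase that makes ribosomal RNA, had −0.42 and −0.30 with adjusted p of 0.00349 and 0.0194, and pes, a large-subunit assembly gene, had −0.28 with 0.0194. Nopp140 and Tsr1 were also called. With the length trend removed beside the block, 0 of the 26 were called (7 had an unadjusted p under 0.05), and Myc had a log2 fold change of −0.18. The negative side held after that removal. Of the 26 genes 22 were negative both without and with the block, with medians of −0.09 and −0.10. Over all genes tested these medians were 0.02 and 0.01.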

How the data were processed

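RNA of 3 control and 3 H2O2 libraries of S2 cells was measured. The submitters' processing notes name STAR 2.4.0j, RSEM 1.2.21 and the dm6 genome. No annotation release is named in the sources used here. The tables deposited by the authors hold, per the file headers, an expected count per gene, a TPM value and, used here as scores, the gene length, the effective length and the posterior SD of the count. Expected counts were rounded. Symbols and positions came from Ensembl release 115 (BDGP6.54, equal to dm6), which matched 16419 of 16451 IDs.

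The filterByExpr function of edgeR 4.0.16, run in R 4.3.3, kept 8955 genes with 99.975% of counts. edgeR then scaled by TMM and tested H2O2 against control (two-sided robust quasi-likelihood F test with 1 term, group; called at a Benjamini-Hochberg adjusted p under 0.05 over all genes). SE is the log2 fold change over √F. Levels are deposited TPM values, CPM are edgeR's TMM-scaled counts, and ± gives the SD. The length correction took each library's loess (span 0.5) of log2 CPM on log2 length as an offset. Paralog ratios used a pseudocount of 0.5 TPM. Alternatives used DESeq2 1.42.0 and limma 3.58.1. Scripts were tested on simulated data.

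Deviations from the group means correlated at 0.717, 0.518 and 0.601 over all genes between libraries numbered 1, 2 and 3 in the 2 groups, so the numbers were read as pairing them; this comes from the data, not the labels. Chi-square per degree of freedom was 40.9 to 191 over the 15 library pairs, so none were duplicates.

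The members, the related lists and the rule for named genes were chosen with earlier results of these data known. Named were all paralog family members, the 3 most and 3 least abundant others, the 5 highest and 5 lowest fold changes, the 4 smallest p with the block, genes picked by role, and from related lists the 4 called genes of smallest p or the 2 most abundant. RpL9, RpL29, RpL38, RpS25, RpL36A, RpS29, Rack1, Xrp1, and genes named in lists of calls, were named after their values were seen. A further gene called with the block is not reported here. Counting error alone is covered by the limit that 0 counts allow (3 counts).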

Additional observations from a re-analysis of the deposited data

How the results depend on the processing

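Without the block, 0 ribosomal protein genes were called under every alternative run, each library left out included. Over all genes, 281 calls became 76 with at least 50 counts in 3 libraries, 706 by DESeq2, 1947 with the replicate block, 669 with the length trend removed and the block, 0 to 154 with 1 library left out, 0 without both libraries numbered 1, and 1536, 768 and 1652 with the block and without pair 1, 2 or 3. Called ribosomal protein genes numbered 8 with the block, and 1, 0 and 31 without pair 1, 2 or 3; these fits and the one without both libraries numbered 1 were chosen after seeing the data. Their median log2 fold change of 0.20 was 0.037 with the length trend removed and 0.034 with the block besides. Leaving out 1 library ranged it from 0.11 to 0.26. Pairs of copies that did not overlap numbered 0 to 1 with 1 library left out (RpS14 without H2O2 replicate 1), and 1 without both libraries numbered 1. A limit on the posterior SD of 10% of the count left out 0 pairs, and the mean of the same-numbered differences in ratio equals the difference of group means. The TPM share difference stayed positive.

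Signs of single genes turned as follows. With the length trend removed, and then with the block besides, log2 fold changes were −0.028 and −0.030 for RpL10Ab, −0.0049 and −0.015 for RpL41, −0.00079 and −0.0092 for RpL5, −0.0042 and −0.0045 for RpS3A, −0.02 and −0.05 for RpL38, −0.026 and −0.025 for RpS25, and −0.015 and −0.020 for RpL36A; RpS29 had −0.0058 in the second fit alone. By limma RpL3 had −0.0016 with either pseudocount. With 1 library left out, values ran from −0.043 to 0.18 for RpL3, from −0.0080 to 0.25 for RpL5 (both lowest without control replicate 1), from −0.040 to 0.43 for RpS15Ab and from −0.41 to 0.76 for RpS19b (both lowest without H2O2 replicate 1), and from −0.20 to 0.18 for RpLP0-like. RpLP0-like, at 0.0056 in the reported fit, had −0.0082 with no count filter, −0.10 by limma with either pseudocount, −0.11 and −0.12 with the length trend removed, without and with the block, −0.019 without both libraries numbered 1, and −0.019 and −0.0019 with the block and without pair 1 or 3. The cause was not tested. Depth limited only the copies under 5 TPM.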
